A study of Mus musculus with 32 samples.

Results

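The cytosolic ribosomal protein genes were examined in microglia sorted from the mouse cerebral cortex after a stab wound. Members were the protein-coding genes named Rpl or Rps with a number (and the suffixes a, x, l, al or l1), the stalk genes Rplp0, Rplp1 and Rplp2, and Rpsa. This rule gave 83 of the 55385 genes in the table, 52 of the large subunit and 31 of the small subunit. The rule uses names only, not expression values. Another 4 ribosomal protein genes fall outside these name patterns and are described separately.

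The injured libraries came from the site of the wound, and the non-injured libraries from the matching site of the opposite hemisphere, which the sample titles call sham. Both sides were sampled on days 1, 4, 7 and 14, in females and males. All mice were adult C57BL/6 animals heterozygous for Cx3cr1CreER. They received tamoxifen at 180 mg/kg on 5 days, starting at 8 to 10 weeks of age, so that microglia carried EYFP, the yellow fluorescent protein used for sorting. Every group therefore shares the Cre allele, the tamoxifen course and a wounded brain, since the non-injured side belongs to wounded mice. Cx3cr1 is also active in other macrophages and in some monocytes, so the gate does not hold microglia alone by design. The labels do not tie libraries to animals and do not say whether animals were pooled.

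Each of the 16 combinations of day, sex and side has a pair of deposited columns. Over all genes these columns differed by little more than counting noise, though the members differed more in some groups. The columns were summed, which gave 8 injured and 8 non-injured libraries, or 8 pairs of equal day and sex. The p-values of the main test measure the spread between the female and the male pair of a day, pooled over the 4 days. This spread may be in part technical. With 1 pair of each sex per day, sex and other differences between the pairs of a day cannot be told apart. Libraries held 20863982 to 55378788 estimated counts, and 14737 to 40975 genes were detected in each. The day 4 male non-injured library stood apart, with 25.7% of its counts from mitochondrial genes, against 0.697% to 7.55% in the other 15 libraries.

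A ribosome joins messenger RNA and transfer RNAs on its small subunit and forms peptide bonds on its large subunit. Each subunit is built from ribosomal RNA and many proteins, nearly all present in a single copy, and cells therefore tend to make the proteins in step. In mammals many ribosomal protein messages begin with a stretch of pyrimidines, the terminal pyrimidine tract, through which mTOR and the RNA-binding protein LARP1 control their translation. Microglia are the resident macrophages of the brain, and they enlarge, move and divide near a wound.

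The bases around the annotated starts show this tract in some members. None covers a listed start of the 7 paralogues described below, though in Rpl22l1 a run of pyrimidines follows directly after the start base. Of the 83 members, 63 had an entry among the RefSeq promoter sequences (GRCm38.p6, 250 bases before to 50 after each start), 10 of them with several starts. The windows below run from 10 bases before the start, 5′ to 3′, with the start base at position 11. Capitals mark the unbroken run of C and T that covers the start, and a window without capitals has no pyrimidine there. The first 7 begin with such a tract, and the last 3 are paralogues, which share its absence with most members at the starts that RefSeq lists.
Rps10 (chr17:27635225-27635254, minus strand): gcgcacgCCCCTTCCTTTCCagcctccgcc
Rpl35 (chr2:39005112-39005141, minus strand): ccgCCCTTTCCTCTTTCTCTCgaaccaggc
Rpl15 (chr14:18270967-18270996, minus strand): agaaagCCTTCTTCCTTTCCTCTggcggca
Rps18 (chr17:33955646-33955675, minus strand): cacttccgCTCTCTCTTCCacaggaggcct
Rpl28 (chr7:4792955-4792984, plus strand): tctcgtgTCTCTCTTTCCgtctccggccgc
Rps6 (chr4:86857348-86857377, minus strand): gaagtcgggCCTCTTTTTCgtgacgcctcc
Rps27 (chr3:90213629-90213658, minus strand): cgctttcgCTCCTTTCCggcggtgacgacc
Rps27l (chr9:66946076-66946105, plus strand): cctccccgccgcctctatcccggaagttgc
Rpl36al (chr12:69184048-69184077, minus strand): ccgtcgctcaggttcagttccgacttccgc
Rpl39l (chr16:10170218-10170247, plus strand): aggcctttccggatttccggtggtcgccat

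A C at an annotated start followed by 4 pyrimidines was found in 13 of the 63 members (20.6%) and in 800 of 26962 other genes (3.0%). The letters CTTTCC occurred on either strand of the 300-base window in 34 members (54.0%), against 29.3% of other genes. The letters CCGGAAG, the core that ETS factors bind, occurred in 25 members (39.7%), against 9.9% of other genes, and TATAAA in 7 members (11.1%), against 15.7%. Neither CTTTCC nor CCGGAAG contains the other, though neighbouring matches can share bases. A match in these letters is a description of the annotated window and not a mapped site. Members with a tract by the strict rule at an annotated start had a median log2 change of 1.31 at the wound over the 4 days. The other 50 had 1.25. Among those 50 are Rpl27a, Rpl7a and Rpl34, where runs of 20, 21 and 20 pyrimidines cover a start whose base is T. The 25 members with CCGGAAG had a median of 1.37, against 1.20 in the other 38.

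Ribosomal protein transcripts took a larger share of the microglial transcriptome at the wound in each of the 8 pairs. The 83 members together held 3.01% ± 1.07 of all TPM (transcript counts scaled for length and library) in injured libraries and 1.78% ± 0.678 in non-injured libraries (SD, n = 8 each). By counts the shares were 1.14% ± 0.445 in injured and 0.644% ± 0.323 in non-injured libraries. Injured libraries ranged from 1.53% to 4.65% of TPM and non-injured libraries from 1.04% to 3.14%, so the sides overlapped when libraries of different days and sexes were mixed, though not within any pair. The gap was widest in day 1 males, with 4.25% at the wound and 1.73% opposite, and narrowest in day 7 males, with 2.38% and 2.10%. Counting error was small against these gaps, since 95% Wilson intervals of the count shares reached at most 0.0048 percentage points to either side. Each value is a share of a library: in bulk samples, a different mix of cells and a different amount of RNA per cell cannot be told apart. The mitochondrial share of counts moved the other way, lower at the wound in 7 of 8 pairs (2.76% ± 2.14 in injured and 6.38% ± 8.24 in non-injured libraries; SD, n = 8 each), and its part in the result was not tested.

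**Figure D1:**
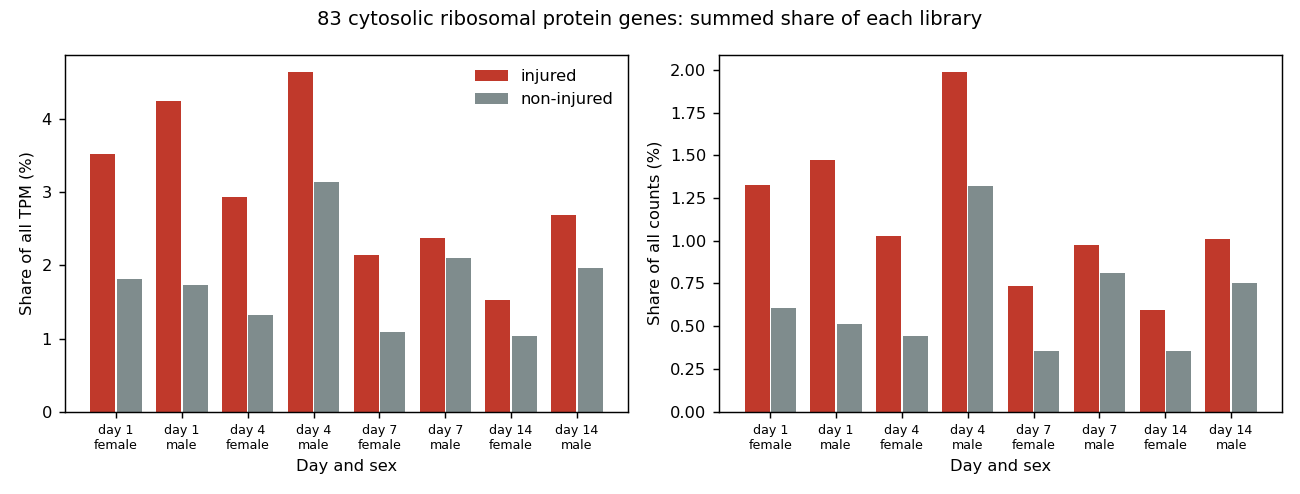
Summed share of the 83 genes in each library, as a percentage of all TPM (left) and of all counts (right), for each day and sex, injured beside non-injured; each bar is 1 library. The injured bar is the taller one in all 8 pairs on both scales, and the day 4 male non-injured bar, at 3.14% of TPM, is the tallest of its side.

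Averaged over the 4 days, 74 of the 83 members rose at the wound and 0 fell. The test was edgeR's quasi-likelihood test on counts with each day and sex as a pair, with p-values adjusted by Benjamini-Hochberg across 28597 genes and a threshold of 0.05, and all 83 members passed its filter on low counts. Over all genes tested, 7.76% rose and 7.96% fell. The median member changed by 1.26 on the log2 scale, a 2.39-fold difference, against a median of -0.32 over all genes tested and 0.20 over the 9025 tested genes that averaged 10 CPM (counts scaled to the library) or more. The quartiles of the members were 1.10 and 1.42, and those that rose ranged from 0.68 (Rpl7l1) to 1.87 (Rps27l). By limma on log2(TPM + 1), 64 members rose and 0 fell, with a median of 0.82; it called 1092 genes higher and 3279 lower in all, against 2219 and 2277 by edgeR. Counted without a model, 64 members had the higher CPM at the wound in 8 of 8 pairs, as did 5.11% of the genes tested. Another 11 were higher in 7 pairs, 5 in 6 pairs, and Rpl12 in 5, Rpl3l in 4 and Rpl10l in 3.

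The count of 74 was 33 when the day 1 female pair was left out, 45 when the day 1 males were and 49 when the day 7 females were. It was 17 when days were compared with no term for the pairs. Over all genes the calls fell too, with 749 of 33557 genes higher without the day 1 females, 1138 of 31995 without the day 1 males, 1050 of 32376 without the day 7 females and 719 of 28597 with no pair term, against 2219 of 28597. Without the day 4 male pair 75 members rose, and 68 were higher in all 7 remaining pairs, as were 5.82% of the genes tested.

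**Figure D2:**
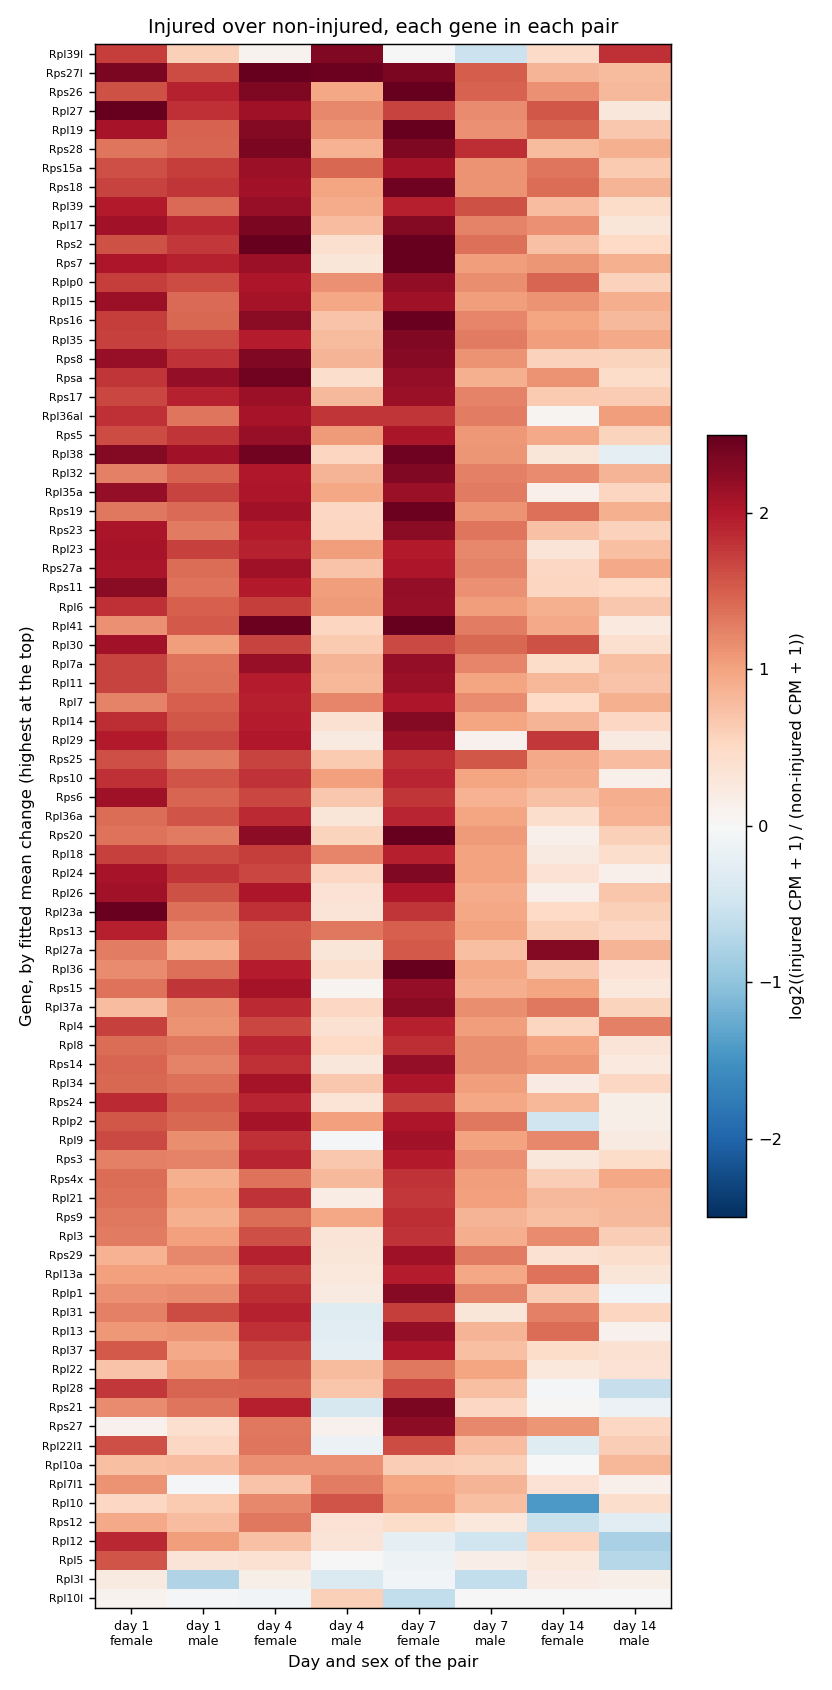
Log2 ratio of injured over non-injured CPM, with 1 CPM added, for 82 of the 83 genes (rows, ordered by the fitted mean change) in each of the 8 pairs of day and sex (columns). Red is higher at the wound; the day 7 female and day 4 female columns are darkest, the day 4 male and day 14 columns palest, and the 9 genes that did not pass the test include the 6 rows at the bottom and Rpl39l at the top.

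Marker transcripts of other cells differed between the sides too. Summed neuron markers (10 genes) reached 22.3 to 390.2 CPM in injured libraries and 95.9 to 8113 CPM in non-injured libraries, lower at the wound in 8 of 8 pairs, with the highest value in the day 4 male non-injured library. Singly, 0 of the 10 rose and 9 fell. Endothelial and mural markers were lower at the wound in 8 of 8 pairs as well, at 48.3 to 299.2 CPM against 152.5 to 1031 CPM, and 0 of these 10 genes rose and 6 fell. Summed microglia markers (12 genes) reached 10580 to 42040 CPM in injured and 10790 to 71790 CPM in non-injured libraries, lower at the wound in 7 of 8 pairs, and 7 of the 12 fell while 1 rose. The summed monocyte markers exceeded the opposite side in each pair, at 200.8 to 2126 CPM against 44.9 to 273.8 CPM. Of these 11 genes 9 rose and 1 fell. Border macrophage markers also exceeded the opposite side in each pair, at 663.3 to 3873 CPM against 112.7 to 1242 CPM. Of these 10 genes 5 rose and 1 fell. T and NK cell markers were low but also higher in 8 of 8, at 7.09 to 45.6 CPM against 0 to 24.98 CPM. Of these 11 genes 3 rose and 0 fell. B cell markers were lower in 7 of 8 (47.1 to 402.4 against 64.9 to 606.9 CPM), and of the 6 tested 1 rose and 1 fell. Neutrophil markers (60.3 to 665.1 CPM injured, 51.9 to 714.7 CPM non-injured), astrocyte markers (173.7 to 1143 and 241.5 to 5964) and oligodendrocyte markers (223.4 to 2407 and 379.3 to 4491) overlapped and were higher at the wound in 5, 3 and 2 pairs. Of the 12 neutrophil markers 8 rose and 0 fell, though their sum overlapped. The 8 astrocyte markers had 0 that rose and 2 that fell, and so did the 8 oligodendrocyte markers. No listed marker was at 0 in all libraries. The part of these cells in the ribosomal protein values was not tested.

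The shift had the same direction on each day, though a day holds only 2 pairs. The median member changed by 1.57 on day 1, 1.28 on day 4, 1.58 on day 7 and 0.69 on day 14 on the fitted log2 scale, against 0.01, 0.25, 0.53 and -0.01 for genes at 10 CPM or more. On day 1, both injured libraries exceeded both non-injured libraries for 76 of 83 members, as for 12.3% of the genes tested. This held for 31 members on day 4 (15.0% of genes tested), 67 on day 7 (17.9%) and 43 on day 14 (7.15%). On day 4 the male non-injured library held more CPM than the female injured library for 50 of the 83 members, 15748 and 14941 CPM in sum. Both injured libraries lay under both non-injured ones for 1 member on day 7 and 1 on day 14, and for 0 on days 1 and 4. The share of all genes tested in this lower direction was not counted.

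With edgeR at the level of a single day, 2 members rose on day 4, Rps27l (log2 change 2.62, adjusted p = 0.0234) and Rpl36al (1.95, adjusted p = 0.0472), and 0 members passed on days 1, 7 and 14. The shares of all genes tested that rose were 0.472% on day 1, 1.52% on day 4, 0.318% on day 7 and 0.0455% on day 14. At an unadjusted p under 0.05, 69 members were higher on day 1, 63 on day 4, 71 on day 7 and 12 on day 14. Of all genes tested, 15.4%, 14.8%, 19.1% and 16.5% had such a p in either direction. The 12 members of day 14 are no larger a share than this, but the share of all genes in the higher direction alone was not counted. DESeq2 on the same libraries called 62, 31, 51 and 1 members higher on these days, and limma on log2(TPM + 1) called 11, 1, 0 and 0. Averaged over days, DESeq2 called 2717 of 28597 genes higher and limma 1092, against 2219 by edgeR. Their shares of all genes on single days are not given here, so these daily member counts have no baseline. In the authors' deposited table of each day, 50 members rose on day 1, 15 on day 4, 22 on day 7 and 6 on day 14, and 0 fell. Those are calls at an adjusted p under 0.05, and among the genes tested here 5.58%, 4.69%, 3.8% and 6.42% rose in the authors' deposited tables. Both day 4 calls were lost with no pair term and without the day 1 female, day 1 male, day 4 male or day 7 male pair, and 1 member was called on day 4 without the day 4, day 7 or day 14 females. On day 1, edgeR called 44 members without the day 4 female pair, which shares the estimate of the spread, and 21 without that of the day 4 males. On day 7 it called 14 without the day 4 males.

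The difference between days did not pass the test for any member (edgeR, 0 of 83, as for 0.0% of the genes tested, and 0 by DESeq2 and by limma), and 2 members had an unadjusted p under 0.05, against 6.36% of all genes. The smallest p-values belonged to Rplp2, Rpl28 and Rps27l, each with an adjusted p of 0.675 by edgeR. Rplp2 changed by 1.53, 1.58, 1.73 and -0.18 from day 1 to day 14, and Rpl28 by 1.65, 1.11, 1.25 and -0.33, so both were lowest on day 14. Across days within the injured libraries alone, 0 of 81 members tested differed (edgeR, and 0 by DESeq2 and by limma), as did 0.104% of all genes, and 4 had an unadjusted p under 0.05, against 6.48% of all genes. Within the non-injured libraries 0 of 82 differed by each of the 3 tools and 0 had an unadjusted p under 0.05, as did 0.0% of all genes by adjusted p.

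By CPM the median gap between the sides was larger in females than in males on every day, while by the summed share of TPM the day 1 gap was larger in males (2.46-fold, against 1.94-fold in females). Median log2 ratios of the members in single pairs were 1.62 in females and 1.38 in males on day 1, 1.92 and 0.65 on day 4, 2.03 and 1.04 on day 7, and 0.74 and 0.54 on day 14. All members were higher at the wound in day 1 females, against 33.7% of the genes tested and 59.2% of those at 10 CPM or more. In day 4 males 76 of 83 members were higher, against 47.9% and 54.7%. There 19 members exceeded a log2 ratio of 1, and the share of all genes that did was not counted. The difference between the sexes did not pass the test for any member by edgeR, as for 0.0% of the genes tested, nor by DESeq2 or limma. At an unadjusted p under 0.05 there were 22 members, all with the larger rise in females, against 7.32% of all genes in either direction. Rpl29 had the smallest p (female minus male 1.47 ± 0.42 SE on the log2 scale, adjusted p = 0.467 by edgeR), then Rpl9 (1.12) and Rpl13 (1.18, adjusted p = 0.559). These large subunit genes were among the ones that the day 4 male non-injured library held at its highest: Rpl13 had 746 CPM at the wound of day 4 males and 913 CPM opposite, while the other non-injured libraries lay between 68.9 and 202 CPM. Neuron markers summed to 701 to 8113 CPM in the day 4, 7 and 14 male non-injured libraries and to 95.9 to 504 CPM in the remaining 5, and their part in the sex difference was not tested.

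Both subunits rose. Of the 52 large subunit genes 45 passed the test averaged over days, and of the 31 small subunit genes 29 did. Their fitted medians were 1.24 for the large and 1.39 for the small subunit, and by day the small subunit was higher each time (1.51 and 1.69 on day 1, 1.20 and 1.41 on day 4, 1.54 and 1.69 on day 7, 0.68 and 0.75 on day 14, large then small). In single pairs the small subunit median exceeded the large one by -0.01 to 0.23, with a mean of 0.12, and was higher in 7 of 8 pairs. This difference is given without a test.

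**Figure D3:**
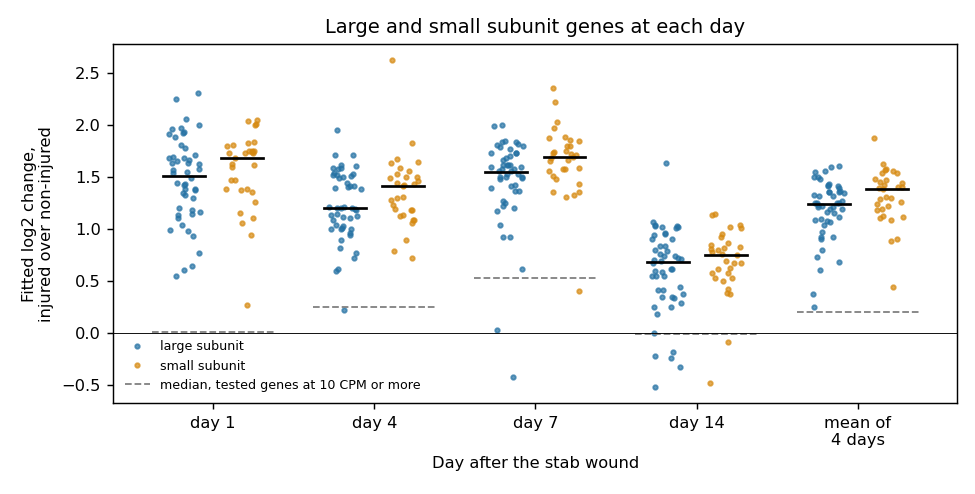
Fitted log2 change, injured over non-injured, of large (blue) and small (orange) subunit genes on each day and for the mean of 4 days; points are genes, black bars the subunit medians over all members, dashed lines the median of tested genes at 10 CPM or more. Rpl3l, Rpl10l and Rpl39l, near 0 counts in several libraries, are left out as points. The medians of both subunits lie above the dashed line throughout, nearest to 0 on day 14. Some single genes lie below it, among them Rpl12 and Rpl5 on day 7.

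Of the 83 members, 69 averaged above 100 TPM over the 16 libraries, with a median of 224.7 TPM. Among the highest levels per length were Rps27 at 1031 ± 522 TPM in injured and 825 ± 515 TPM in non-injured libraries, and Rpl41, which encodes the smallest protein of the ribosome, at 1037 ± 624 and 605 ± 482 TPM (SD, n = 8 each). The SDs of Rps27 and Rpl41 exceeded their difference between the sides, and these neighbours in the order did not differ beyond their spread. By counts Rpl41 had 58.5, 209 and 783 CPM as its lowest, median and highest injured values and 25.6, 86.0 and 536 CPM as its non-injured values (log2 change 1.36 ± 0.26 SE, adjusted p = 0.00838, higher in 8 of 8 pairs). Under 10 TPM were only 3 members, Rpl39l, Rpl3l and Rpl10l, the last at 0.178 TPM.

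The stalk of the large subunit is formed by Rplp0, Rplp1 and Rplp2, which recruit the elongation factors. Rplp0 (chr5:115559467-115563727 on GRCm38, plus strand) had 1098 and 620 CPM in day 1 injured libraries of females and males, against 332 and 200 CPM in the non-injured libraries. On day 4 it had 958 and 861 CPM injured and 236 and 388 CPM non-injured, on day 7 658 and 639 against 140 and 284, and on day 14 505 and 356 against 183 and 237. On each day both injured libraries lay above both non-injured ones, with the narrowest gap in day 14 males (log2 change 1.497 ± 0.195 SE over days, adjusted p = 0.00145). Rplp1 had a lowest, median and highest value of 76.3, 159 and 372 CPM in injured and 25.2, 66.9 and 319 CPM in non-injured libraries (1.07 ± 0.24 SE, adjusted p = 0.0147, 7 of 8 pairs). Rplp2 had 22.8, 58.0 and 168 CPM in injured and 12.2, 26.7 and 82.4 CPM in non-injured libraries (1.16 ± 0.22 SE, adjusted p = 0.00681, 7 of 8 pairs). Rplp2 was lower at the wound in day 14 females, and Rplp1 in day 14 males.

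Rpsa, a small subunit protein also known as the laminin receptor, had 95.7, 222 and 387 CPM as its lowest, median and highest injured values, against 25.9, 65.8 and 214 CPM (log2 change 1.45 ± 0.27 SE, adjusted p = 0.00637). The 4 injured libraries of days 1 and 4 held 287 to 387 CPM and those of days 7 and 14 held 95.7 to 158 CPM. Rps26, which contacts the message near the exit channel, had the next largest change after Rps27l among those that passed the test (1.63 ± 0.24 SE, adjusted p = 0.00222, 8 of 8 pairs), with 30.7, 78.9 and 217 CPM injured and 11.5, 28.4 and 111 CPM non-injured. The large subunit gene Rpl27 followed at 1.60 ± 0.25 SE (adjusted p = 0.00295).

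On single days the highest fitted changes were those of Rpl39l on day 1 (3.36) and day 4 (3.38) and of Rpl3l (5.12) and Rpl39l (4.49) on day 14, both near 0 counts and described with the paralogues. Among the other members, on day 1 Rpl38, known from mouse embryos for its part in translating Hox messages, changed by 2.30 (adjusted p = 0.108) and Rpl27 by 2.25 (adjusted p = 0.0717), while Rps27 was among the lowest at 0.27. On day 4, below Rps27l and Rpl36al, the lowest were Rpl5 (0.22) and Rpl12 (0.59) after Rpl3l. On day 7 Rps2 changed by 2.35 (adjusted p = 0.112), Rps28 by 2.22 and Rps26 by 2.03. On day 14 Rpl27a changed by 1.64 (adjusted p = 0.23), while Rpl10 (-0.52), Rps12 (-0.48) and Rpl28 (-0.33) were lowest, none past the threshold.

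The 9 members that did not pass the test over days were Rpl5, Rpl12, Rps12, Rpl10, Rps21 and the paralogues Rpl22l1, Rpl39l, Rpl3l and Rpl10l. Rpl5, which with Rpl11 and the 5S ribosomal RNA forms a particle that can bind Mdm2, the inhibitor of p53, changed by 0.25 ± 0.26 SE (adjusted p = 0.61). It had 32.9, 24.7, 13.4, 13.3, 6.95, 10.9, 24.6 and 5.57 CPM in the injured libraries of day 1 females, day 1 males and so on to day 14 males. The non-injured values in the same order were 10.3, 19.6, 10.1, 13.2, 7.70, 9.56, 20.5 and 9.75 CPM. The day 1 female pair showed the widest gap and day 14 males the reverse, and by TPM the means were 19.95 ± 18.6 injured and 23.8 ± 15.4 non-injured (SD, n = 8 each). Its partner Rpl11 had 45.3, 83.3 and 278 CPM injured and 14.4, 31.4 and 156 CPM non-injured as lowest, median and highest values, and rose by 1.35 ± 0.22 SE (adjusted p = 0.00401, 8 of 8 pairs); the difference between the partners was not tested. Rpl12, part of the base of the stalk, was higher on days 1 and 4 in both sexes (26.7 and 21.4 CPM injured, 6.49 and 9.81 CPM non-injured on day 1) and lower on day 7 (5.25 and 7.51 against 6.30 and 11.1 CPM), and changed by 0.38 ± 0.27 SE over days (adjusted p = 0.426). The level per length of both was low for the family, at 21.9 TPM for Rpl5 and 13.5 TPM for Rpl12. Rps12 changed by 0.44 ± 0.24 SE (adjusted p = 0.268), Rpl10, which joins the large subunit late in its assembly, by 0.60 ± 0.24 SE (adjusted p = 0.125), and the small subunit gene Rps21 by 0.90 ± 0.37 SE (adjusted p = 0.139).

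Pseudogenes can take reads from ribosomal protein genes, which have many processed copies with nearly the same sequence. For 11 members, at least 10% of the reads of the gene and its named pseudogenes were assigned to the pseudogenes, with 76.5% for Rpl10, 68.0% for Rps23, 58.3% for Rps12 and 50.6% for Rpl15. For 71 members the share was under 5%, though copies with other names were not counted. Rpl10 alone had a mean pair log2 ratio of 0.59 ± 0.90 (SD, n = 8 pairs), and its pseudogenes, led by Rpl10-ps3, which the table lists as protein-coding, had 1.36. Gene and pseudogenes together gave 1.13 ± 0.66, higher in 7 of 8 pairs. Rps12 had 0.41 ± 0.62 alone and 0.76 ± 0.50 with its pseudogenes, higher in 6 and 8 of 8 pairs. For Rps23 (1.34 alone, 1.34 combined) and Rpl15 (1.47 and 1.47) the sum made no such difference. Rpl5 and Rpl12 had 1.61% and 0.396% of their reads on named pseudogenes, which does not cover reads lost to copies with other names. Values of at least the 11 genes are uncertain in this respect, since reads of a gene and a near-identical copy cannot be told apart by the counts alone.

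Transcript length had no common relation to the change. Across the 79 members at a mean of at least 10 CPM, Spearman's rho between median transcript length and the pair log2 ratio lay between -0.14 and 0.24 over the 8 pairs. These points share libraries, so rho is given as a description. Single libraries did differ by length. Against the mean of all 16, long members were relatively high in the day 14 female libraries (rho 0.51 injured, 0.36 non-injured) and short members in the day 14 male libraries (-0.28 injured, -0.51 non-injured). Rps28, of the second shortest length among the members, ranged from 5.54 CPM (day 14 females) to 191 CPM (day 4 males) at the wound and from 2.75 to 104 CPM opposite, with the same libraries at the ends.

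Among the members, 7 are paralogues of another member, and their change was compared with that of the partner. The measure was the paralogue's log2 ratio minus the partner's in each pair (1 CPM added), tested by an exact two-sided sign flip over 8 pairs, whose smallest possible p is 0.00781, adjusted over the 7 comparisons. Rps27l (chr9:66946086-66949516, plus strand), known in human cells as a p53 target, had 164 and 51.4 CPM in day 1 injured libraries of females and males and 31.2 and 15.95 CPM in non-injured ones. On day 4 it had 92.5 and 298 CPM injured and 13.5 and 53.7 CPM non-injured, on day 7 78.0 and 182 against 14.4 and 63.2, and on day 14 68.7 and 37.3 against 37.5 and 21.2. It was higher at the wound in all 8 pairs (log2 change 1.87 ± 0.20 SE, adjusted p = 0.000594 by edgeR), the largest change that passed the test. Rps27, its partner, had 83.2 and 41.5 CPM injured and 76.8 and 30.7 CPM non-injured on day 1, 162 and 305 against 64.4 and 282 on day 4, 109 and 260 against 22.4 and 113 on day 7, and 61.5 and 177 against 28.3 and 123 on day 14. Rps27 thus hardly differed on day 1, and rose over days by 0.88 ± 0.22 SE (adjusted p = 0.0234).

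The difference between Rps27l and Rps27 was 0.96 ± 0.98 (SD, n = 8 pairs) on the log2 scale and above 0 in 7 of 8 pairs, but it did not pass the adjusted threshold (exact sign flip, p = 0.0234, adjusted p = 0.0547). It lay between 1.21 and 2.34 on days 1 and 4 and between -0.24 and 0.32 on days 7 and 14. Rps27l made up 10.2% to 51.3% (mean 31.5%) of the TPM of both genes in injured and 8.51% to 40.8% (mean 20.2%) in non-injured libraries, higher at the wound in 7 of 8 pairs. The difference between days was not tested for this ratio. Leaving out 1 pair at a time gave a mean difference between 0.76 and 1.13. The 1.13 came without the day 14 female pair, the only one below 0 (exact sign flip, p = 0.0156, adjusted p = 0.0365). All 7 remaining values were above 0, so this p is the smallest that 7 pairs can give.

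Rpl36al (chr12:69182731-69184083, minus strand) is the autosomal copy of the X-linked Rpl36a. It had 31.1, 68.3 and 271 CPM injured and 14.5, 24.95 and 78.2 CPM non-injured as lowest, median and highest values and rose by 1.43 ± 0.20 SE (adjusted p = 0.00209), as did Rpl36a with 7.69, 20.8 and 63.9 CPM against 2.94, 7.52 and 51.5 CPM (1.27 ± 0.27 SE, adjusted p = 0.0137). Their difference of 0.23 ± 0.57 was above 0 in 5 of 8 pairs (exact sign flip, p = 0.313, adjusted p = 0.365). Rpl7l1, which despite its name acts in large subunit assembly, rose by 0.68 ± 0.20 SE (adjusted p = 0.0446), a call lost without any 1 of 7 pairs and under 5 further settings, with 53.2, 105 and 178 CPM injured and 31.2, 71.1 and 99.9 CPM non-injured. Rpl7 rose by 1.32 ± 0.19 SE (adjusted p = 0.00202), and the difference of -0.64 ± 0.59 was below 0 in 7 of 8 pairs (exact sign flip, p = 0.0156, adjusted p = 0.0547).

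Rpl22l1, which Rpl22 represses in mouse tissues, did not pass the test (0.80 ± 0.28 SE, adjusted p = 0.0894, 6 of 8 pairs), while Rpl22 rose by 0.92 ± 0.21 SE (adjusted p = 0.0171, 8 of 8 pairs). Rpl22l1 had 10.1, 22.4 and 86.3 CPM injured and 5.79, 12.2 and 95.6 CPM non-injured, and Rpl22 had 15.8, 24.9 and 76.4 CPM against 8.25, 12.6 and 43.5 CPM. Their difference depended on the unit. By CPM it was -0.13 ± 0.59 (exact sign flip, p = 0.555), above 0 in 3 of 8 pairs. By TPM, which corrects for the length of the transcripts in use, it was -0.64 (exact sign flip, p = 0.00781, adjusted p = 0.0273), and Rpl22l1 made up 50.2% ± 5.63 of the TPM of both in injured and 61.0% ± 7.27 in non-injured libraries, lower at the wound in 8 of 8 pairs.

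The remaining paralogues, 3 in number, were near the limit of detection. Rpl39l, known from mouse testis, had 73, 38, 9, 124, 13, 8, 16 and 73 counts in injured libraries, from day 1 females to day 14 males, and 1, 10, 8, 3, 15, 38, 4 and 0 counts in non-injured ones. Of the 5 highest values 4 came from the wound (both sexes on day 1, day 4 males and day 14 males) and 1 from the non-injured side of day 7 males, and its change did not pass the test (2.60 ± 0.86 SE, adjusted p = 0.0609). The count of 0 allows up to 3 counts, so the size of this change rests on very few reads. Rpl3l, known from heart and skeletal muscle, had 1 to 31 counts injured and 0 to 45 counts non-injured. Rpl10l, known from testis, had 0 to 14 and 0 to 18. Of 16 libraries, 7 for Rpl3l and 13 for Rpl10l held fewer than 3 counts, so their fitted changes on single days carry no information on size. The partners Rpl3 (1.10 ± 0.20 SE, adjusted p = 0.00635) and Rpl39 (1.56 ± 0.26 SE, adjusted p = 0.00445) rose. The differences were -1.23 for Rpl3l, -0.60 for Rpl10l and -0.60 for Rpl39l, with adjusted p of 0.0547, 0.205 and 0.365 by exact sign flips, and with 1 CPM added a gene near 0 cannot show a ratio far from 0.

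**Figure D4:**
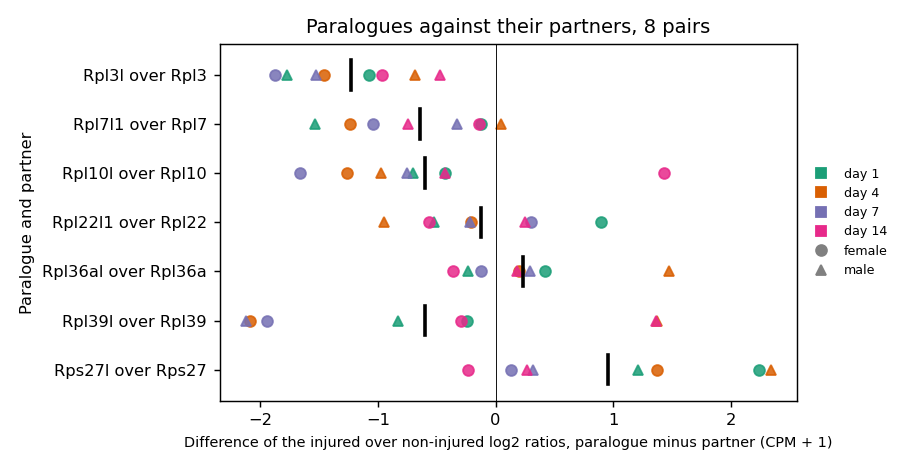
Difference between the injured over non-injured log2 ratios of each paralogue and its partner (CPM + 1), 1 point for each of the 8 pairs, coloured by day and shaped by sex; black bars are means. Rps27l lies right of 0 in 7 of 8 pairs, farthest on days 1 and 4, and Rpl7l1 lies left of 0 in 7 of 8.

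Other genes of the translation machinery were read from the same fit, averaged over days, beside a median of -0.32 over all genes tested and 7.76% of them called higher. The 4 ribosomal protein genes outside the name patterns all rose, with a median of 1.25, among them Rack1, the scaffold of the small subunit (1.42 ± 0.18 SE, adjusted p = 0.00118), Rps3a1 (1.26) and Fau (1.24), made as a fusion to a ubiquitin-like protein. Of 8 elongation genes, 6 rose and 1 fell. Eef1a1, which delivers transfer RNAs to the ribosome, had 2224 ± 852 CPM injured and 846 ± 201 CPM non-injured (SD, n = 8 each; 1.34 ± 0.15 SE, adjusted p = 0.000756). Its exchange factors Eef1g (1.54) and Eef1b2 (1.32) rose as well. The gene that fell was Eef2k, the kinase that inhibits elongation factor 2, with 48.0 ± 36.2 CPM injured and 89.9 ± 55.7 CPM non-injured (-1.01 ± 0.20 SE, adjusted p = 0.00859, lower in 8 of 8 pairs). Of 34 initiation genes 19 rose and 0 fell (median 0.87), led by Eif2s2 (1.36) and Eif2s1 (1.32), subunits of the factor that brings the initiator transfer RNA, and by Pabpc1 (1.27), which binds poly(A) tails.

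Of 9 other genes whose messages start with a pyrimidine tract, 5 rose and 0 fell. Npm1, a nucleolar chaperone of ribosome assembly, had 174 ± 45.1 CPM injured and 51.1 ± 16.7 CPM non-injured (1.78 ± 0.17 SE, adjusted p = 0.000414, 8 of 8 pairs), and Hnrnpa1 (1.55) and Btf3 (1.17) rose too. The 4 that did not pass were the non-coding hosts of small nucleolar RNAs, Gas5 (96.4 ± 55.3 CPM injured, 96.7 ± 85.8 CPM non-injured; 0.11 ± 0.20 SE, adjusted p = 0.85), Snhg1 (0.17), Snhg8 (-0.12) and Snhg12 (-0.35); they were named after their values were seen.

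Of 67 ribosome assembly factors 20 rose and 0 fell (median 0.61), led by Pno1 (1.80 ± 0.22 SE, adjusted p = 0.00109), needed for small subunit assembly, Nhp2 (1.49) and nucleolin, Ncl (1.11). Of 19 genes of RNA polymerase I, which transcribes ribosomal RNA, 3 rose and 0 fell (median 0.38): Polr2f (1.28), Polr1d (0.96) and Polr2l (0.81), all subunits shared with other RNA polymerases. Of 77 mitochondrial ribosomal protein genes 33 rose and 0 fell (median 0.75), led by Mrpl54 (1.46), Mrpl27 (1.30) and Mrps28 (1.29). Of 14 genes for the rescue of stalled ribosomes 0 passed edgeR's test in either direction (3 at an unadjusted p under 0.05), with a median of -0.05; DESeq2 and limma were not counted for this list.

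Of 23 regulators of ribosome production 4 rose and 1 fell (median -0.02). Eif4ebp1, a repressor of cap-dependent initiation that mTOR inactivates, had 88.8 ± 46.7 CPM injured and 23.6 ± 13.7 CPM non-injured (1.95 ± 0.21 SE, adjusted p = 0.000596). Rptor, which encodes the substrate-binding subunit of mTOR complex 1, fell to 52.8 ± 27.4 CPM in injured libraries, against 136 ± 70.2 CPM in non-injured ones (-1.35 ± 0.20 SE, adjusted p = 0.00232, lower in 8 of 8 pairs). Max, the dimer partner of Myc, rose at a low level, 19.6 ± 19.9 CPM injured and 6.42 ± 4.57 CPM non-injured (1.33, adjusted p = 0.0293). Myc itself had 82.8 ± 68.1 CPM injured and 102 ± 75.5 CPM non-injured (-0.26 ± 0.22 SE, adjusted p = 0.515), and Mtor 28.4 ± 11.7 and 28.8 ± 10.6 CPM (-0.05 ± 0.26 SE); both were named after their values were seen.

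**Figure D5:**
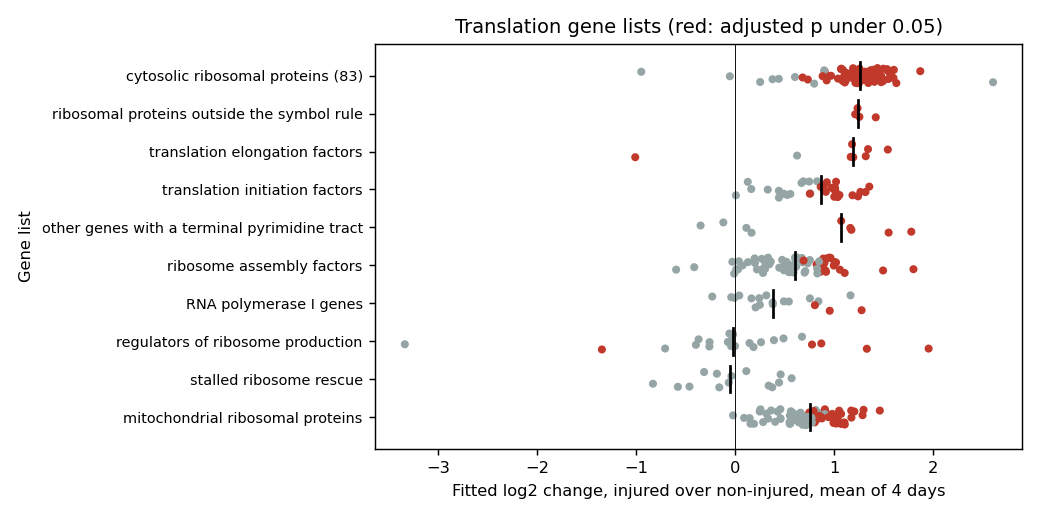
Fitted log2 change, injured over non-injured, mean of 4 days, for each gene of 10 lists; red points passed an adjusted p under 0.05, grey points did not, and black bars are list medians. The cytosolic ribosomal proteins (median 1.26), the ribosomal proteins outside the name patterns and the elongation genes lie farthest right; the regulators and the rescue genes centre on 0.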

How the data were processed

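RNA from sorted microglia was made into cDNA with SMART-Seq v4 and into libraries with Nextera XT, per the labels' protocols. This chemistry does not mark strand, so a gene and its antisense partner cannot be told apart. Salmon 1.0.0 and DESeq2 1.26.0 stand in the submitters' processing notes, while the genome build is not given in the sources used here. Expected counts (estimated reads per gene, not normalized) and TPM values for 55385 genes were deposited by the authors, with a table per day of log2 fold changes and adjusted p-values, per the file headers. The direction of these folds is injured over non-injured, as the signs of the members and of the counts show.

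All 32 count columns were used. The 2 columns of a library had a median chi-square of 0.475 to 0.639 over genes with at least 20 counts, where counting noise gives 0.455. Over the members alone this median was 0.411 to 1.04, so in some libraries their columns differed by more than counting noise. The 2 columns were summed and rounded, and replicate numbers pair nothing across groups. R 4.3.3 and edgeR 4.0.16 gave the main test (quasi-likelihood, TMM factors, filterByExpr with a minimum count of 10), with a mean for each of 8 pairs and an injury effect for each of 4 days. It had 4 residual and 5.32 prior degrees of freedom. SE was taken as the size of the log2 change divided by the root of F. CPM uses TMM-scaled library sizes. The alternatives were DESeq2 1.42.0, limma 3.58.1 on log2(TPM + 1), other size factors, no filter, no pair term, single columns, protein-coding genes only and each pair left out. The test was checked on simulated data.

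Named members were the 3 highest and 3 lowest changes per day and over days, the paralogues and partners, Rpsa and the stalk genes, the 3 highest and 3 lowest TPM, the 3 smallest p for day and for sex, and up to 3 called genes of each list at 10 CPM or more. Of these, 1 member and 1 list gene are not reported here. Rps4l, a pseudogene here, was left out of the paralogues. Rps21, Rps12, Rpl11, the genes with pseudogene reads and the printed start sites were picked after their values were seen. The members and lists were chosen with earlier results of these data known. Coordinates and transcript lengths come from GENCODE M21 (GRCm38), matched by gene ID. Intervals cover counting error only.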

Additional observations from a re-analysis of the deposited data

Results flagged for a closer look

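Of 72 groups of 8 libraries tested for a single far value (the gap to the next library over the whole range, against Dixon's 95% critical value), 39 had one, where chance gives about 1 in 20. In 37 of them the far library was the day 4 male one. The tests are not independent, since they share libraries.

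At the wound, the day 4 male library stood above the other 7 for these members, in CPM. The stalk genes Rplp1 and Rplp2 had 371.5 and 168.3, Rps28 had 190.6, Rps12 41.84, Rpl9 455.3, Rpl11 278.4, Rpl27a 104.3 and Rpl41 782.7. Rpl22 had 76.42 and Rpl22l1 86.26, Rpl36a 63.94 and Rpl36al 270.9, and Rpl39 126.3. Rpl3l (1.131) and Rpl10l (0.5107) were far values at very low counts.

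On the non-injured side, the day 4 male library held 15750 CPM of all members, against 6484 in the next library. It also stood apart for Rplp1 (318.6), Rplp2 (82.35), Rpsa (214.1), Rps2 (579.3), Rps12 (32.26), Rps26 (110.8), Rps27 (282.2) and Rps28 (103.7). Of the large subunit, Rpl9 (468.0), Rpl11 (155.9), Rpl13 (912.5), Rpl22 (43.54), Rpl22l1 (95.61), Rpl27 (40.44), Rpl27a (84.83), Rpl29 (123.8), Rpl36a (51.45), Rpl36al (78.16), Rpl39 (65.6), Rpl41 (536.3) and Rpl3l (1.745) did. This library also had the highest mitochondrial share (25.7% of counts) and the highest summed neuron markers (8113 CPM), and the part of these in its ribosomal protein values was not tested. The other 2 far values were Rpl10 in the day 14 female non-injured library (108.1 CPM, next 44.12), against 39.6 CPM at the wound of the same pair, and Rpl10l in the day 7 female non-injured library (0.5247 CPM, next 0.1024).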

How the results depend on the processing

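Over the 4 days, 72 to 79 or 80 members rose under other size factors, filters, DESeq2 or single columns and 64 under limma, while 17 did with no pair term and 33 to 75 when 1 pair was left out. Over all genes, 1939 of 28597 rose with median-ratio factors, 1950 of 47869 without the filter, 2717 of 28597 with DESeq2 and 1092 of 28597 with limma. With either column alone 1954 of 23973 and 2004 of 23674 rose. With the 32 columns as separate samples and the replicate block, 5227 of 22980 rose. On day 1 (0 by edgeR) the count was 20 with median-ratio factors, 62 with DESeq2, 11 with limma, 48 over protein-coding nuclear genes, 5 with either column alone and 0 to 44 without 1 pair. On day 4 (2) it was 1 without the filter, 31 with DESeq2, 1 with limma, 0 with no pair term, 21 over protein-coding genes and 0 to 2 without 1 pair. On day 7 (0) it was 51 with DESeq2, 5 over protein-coding genes and 0 to 14 without 1 pair, and on day 14 (0) it was 1 with DESeq2. Treating the 32 columns as separate samples, with the replicate block and without it, gave 79 and 79 on day 1, 74 and 75 on day 4, 77 and 77 on day 7 (2 and 2 fell) and 55 and 55 on day 14 (1 and 1 fell). The same pairing by number gave 46 and 46 members that differed between days, 62 and 64 between sexes, 13 and 21 across non-injured days and 57 and 59 across injured days; these columns carry no spread between animals. With no pair term the last 2 tests were not run. The cause of these shifts was not tested, and daily shares over all genes are not given for these settings.

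Of the paralogues, 2 passed with TPM + 1 (Rpl3l and Rpl22l1) and 0 to 3 without 1 pair. Rpl3l averaged 0.376 TPM and with 1 added cannot show a ratio far from 0. Its difference therefore mostly restates the rise of Rpl3 and is no result about Rpl3l. Rpl39l against Rpl39 turned to 0.34 with 0.1 CPM added. Rpl5 turned to -0.45 by limma. Rpl3l, between -0.67 and 1.79 without 1 pair or column, turned positive by DESeq2 (0.55), with no filter (0.011) and over protein-coding genes (0.003), as did Rpl10l (-1.60 to 0.59 without 1 pair or column) by DESeq2 (0.31) and when 1 female pair of day 4 or 7 was left out (0.44 and 0.59). Median-ratio factors moved the median of all genes to -0.44, against -0.32, and the members' to 1.12, against 1.26.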
